A study of Mus musculus with 9 samples.

Results

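Gata4, Gata6, Sox7, Sox17, Foxa2, Hnf4a, Pdgfra and Foxq1 were followed over cultures of D3-pOct4 mouse embryonic stem cells as transcription factors and a receptor of the primitive endoderm. Every probe set that the platform annotation gives to 1 of these 8 symbols alone was taken, which gave 19 probe sets among 45101. At least 1 probe set of each of the 8 genes, and 13 of the 19 probe sets, passed the filter on dim signals and were tested; the series names 18194 genes in all. A gene with more than 1 tested probe set is represented below by the brightest of them on average. The 3 conditions, each on 3 Affymetrix arrays after 7 days, were DETA/NO (a slow nitric oxide donor) at 2 µM in medium without LIF, medium without LIF, and medium with LIF at 1000 U/ml. LIF, or leukemia inhibitory factor, is the cytokine that keeps mouse stem cells undifferentiated, and it was recombinant. All cells were grown at low density in DMEM with fetal bovine serum, and replicates 1, 2 and 3 come from passages 31, 33 and 34 in each condition. All 9 arrays are of 1 line, the labels do not describe its pOct4 construct further, and they leave unsaid whether the cultures were independent. The p-values therefore reflect only how these arrays varied, which may be technical. RNA was taken from whole trypsinised cultures.

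In the mouse embryo the primitive endoderm forms beside the epiblast within the inner cell mass and gives rise to the visceral and parietal endoderm of the yolk sac. FGF4 made by the epiblast acts through FGF receptors to favour Gata6, Gata6 is followed by Sox17, Gata4 and Sox7, and the receptor PDGFRα marks the cells from early on. Stem cells in serum are known to hold a few cells that take this path without any inducer. In bulk RNA, fewer cells of a type and less RNA per cell cannot be told apart, and this holds for every value below.

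Signals are linear intensities scaled to a trimmed mean of 100 on every array, and array medians ran from 13.9 to 23.3. They were at least 20 on DETA/NO replicates 1 and 2 and on LIF replicate 1. The stem cell label was checked on its markers: Pou5f1, the factor that defines pluripotent cells, read 958 to 3211 over the 9 arrays, and all 8 stem cell markers passed the filter. Socs3, a direct LIF target, read 95.8, 405 and 127 in DETA/NO cultures, 102, 3054 and 330 without LIF, and 282 to 3213 with LIF, where replicate 2 was the lowest. The arrays labelled LIF replicate 2 and no LIF replicate 2 thus go against their labels for Socs3, so results are also given without them. No LIF replicate 1 and DETA/NO replicate 3 are called the alike pair below, since over all tested probe sets other than the members' they had the highest log2 correlation of the 36 pairs of arrays, 0.977, against 0.951 for the next pair.

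One array stood apart for most of these genes. On LIF replicate 3, 6 of the 8 genes had their highest signal, and 5 of the 8 (Gata4, Gata6, Sox7, Sox17 and Pdgfra) were at least 2-fold above the next array. Over all 29811 tested probe sets, LIF replicate 3 was the highest array for 5.17% and at least 2-fold above the next for 0.201%. By probe set the counts among the members were 11 of 13 tested and 9 of 13 tested. Foxa2 and Hnf4a were highest elsewhere.

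**Figure D1:**
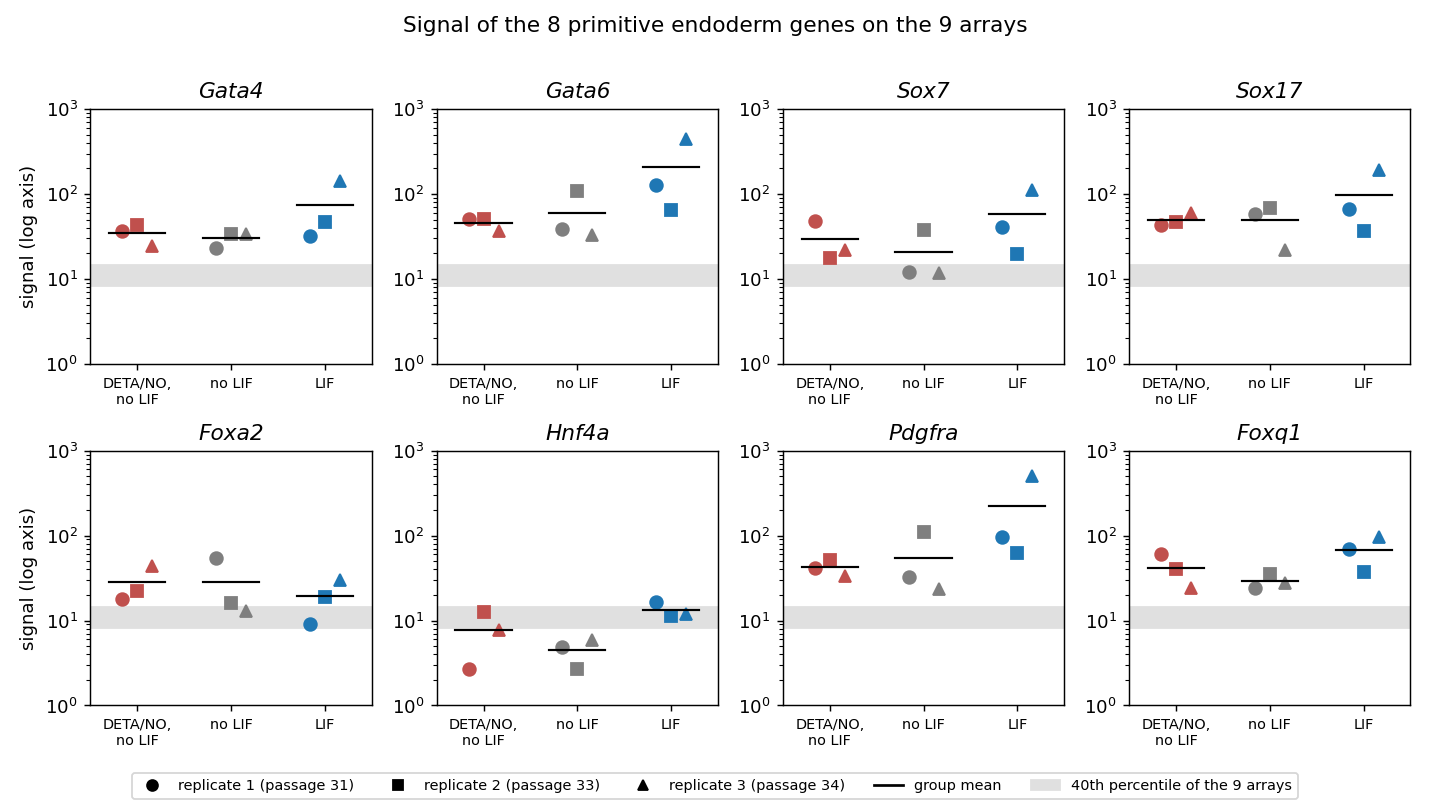
Signal (log axis) of the probe set that stands for each gene, 1 point per array, with the group mean as a bar and the range of the arrays' 40th percentiles as a grey band. The triangle of LIF replicate 3 is the highest point for 6 of the 8 genes, the highest Foxa2 points are no LIF replicate 1 and DETA/NO replicate 3, and Hnf4a lies within or below the band on 8 of the 9 arrays.

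Gata6, the zinc finger factor at the head of the primitive endoderm programme, read 50.6, 50.7 and 36.7 in DETA/NO replicates 1 to 3, against 39.2, 108 and 32.9 without LIF and 129, 64.4 and 439 with LIF. The LIF replicate 3 signal was 3.41-fold the next highest, which was that of LIF replicate 1. All 3 DETA/NO arrays lay below all 3 LIF arrays, while the no LIF arrays overlapped both. The other tested Gata6 probe set followed it over the 9 arrays (r = 0.96, and 0.90 without LIF replicate 3), but on it the groups overlapped, at 15.3, 35.1 and 18.0 in DETA/NO cultures against 68.5, 22.1 and 212 with LIF. Gata6 averaged 46.0 ± 8.05 in DETA/NO cultures, 59.9 ± 41.5 without LIF and 211 ± 200.4 with LIF (SD, n = 3 each).

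Gata4, its close relative and a later factor of the lineage, read 36.3, 43.2 and 24.7 in DETA/NO cultures, against 23.0, 33.8 and 34.3 without LIF and 32.3, 46.5 and 141 with LIF. Only LIF replicate 3 left the range of the other arrays, at 3.04-fold the next. Its second tested probe set was also highest there, 2.39-fold above the next, but over the other 8 arrays the pair of probe sets agreed weakly (r = 0.24).

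Sox17 and Sox7 are related SOX factors of the same subgroup; Sox17 acts in primitive and definitive endoderm, and Sox7 is strong in parietal endoderm. Sox17 read 43.6, 46.3 and 59.8 in DETA/NO cultures, against 57.9, 68.1 and 21.8 without LIF and 66.6, 37.0 and 192 with LIF. Sox7 read 48.2, 17.8 and 21.8 in DETA/NO cultures, against 12.1, 38.0 and 11.8 without LIF and 41.0, 19.7 and 113 with LIF. Both were highest on LIF replicate 3, by 2.81-fold and 2.34-fold over the next array, and lowest on no LIF replicate 3. Apart from that highest array, the 3 groups overlapped for both on these probe sets. On the other tested Sox17 probe set the DETA/NO arrays, at 24.3, 18.0 and 26.8, lay below all LIF arrays, at 35.0, 29.6 and 67.9. There LIF replicate 3 was 1.94-fold above the next array. The other Sox7 probe set was too dim to be tested and did not follow the first (r = 0.12). It was highest on no LIF replicate 3, at 8.11.

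Pdgfra encodes a receptor tyrosine kinase for PDGF that is a surface marker of the primitive endoderm. Its signal was 41.2, 52.0 and 33.4 in DETA/NO cultures, against 32.3, 109.6 and 23.3 without LIF and 96.4, 62.8 and 509 with LIF. LIF replicate 3 was 4.64-fold above the next array, the widest such gap of the 8 genes. As with Gata6, the DETA/NO arrays of this probe set lay below all LIF arrays, while on the other 2 tested Pdgfra probe sets these groups overlapped. Over the 9 arrays Pdgfra and Gata6 had r = 0.99 in log2 signal, and 0.97 over the 8 arrays without LIF replicate 3; these points share the arrays' depth and scaling. All 3 Pdgfra probe sets were highest on LIF replicate 3, by 3.02-fold to 4.64-fold.

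The Pdgfra promoter is shown because its signal followed Gata6 most closely among the members. The 300 bases run from 250 before to 50 after the RefSeq start, chr5:75152001-75152300 on the plus strand of GRCm38.p6, 5′ to 3′:
Pdgfra: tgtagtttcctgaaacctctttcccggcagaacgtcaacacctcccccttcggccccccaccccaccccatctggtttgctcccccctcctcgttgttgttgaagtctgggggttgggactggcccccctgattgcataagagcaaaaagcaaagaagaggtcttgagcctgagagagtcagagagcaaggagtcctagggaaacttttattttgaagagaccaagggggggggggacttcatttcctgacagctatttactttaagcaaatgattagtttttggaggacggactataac
Both strands of 32851 promoter windows of this length were searched for 7 short strings. Among the members, matches were read for 3 of the 8 only, Pdgfra, Foxa2 and Hnf4a. For GATA factors, GATA was found in 57.9% of the windows and the longer AGATAA, which contains it, was found in 11.2%. The SOX string ACAAT was found in 31.0%, and the forkhead string TGTTTAC was found in 3.65%. A second forkhead string, TGTTTGC, was found in 5.07%, the STAT string TTCNNNGAA in 8.30% and the HNF4 string CAAAGTCCA in 0.475%. The Pdgfra window holds 0 of the 7, which says only that these letters are not in it.

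Foxa2, a forkhead factor of visceral endoderm and of definitive endoderm and the node, had another profile. It read 18.0, 22.3 and 44.2 in DETA/NO cultures, against 55.2, 15.9 and 13.1 without LIF and 8.99, 18.9 and 30.0 with LIF. The highest arrays were no LIF replicate 1 and DETA/NO replicate 3, the alike pair, and LIF replicate 3 came next. With Gata6 its r over 9 arrays was -0.16, and -0.61 over the 8 arrays without LIF replicate 3. Foxa2 has 1 probe set, so no second one can be set beside it.

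RefSeq lists 3 starts for Foxa2 on the minus strand of chromosome 2, and the window below is shown because it is the only one of the 3 that holds a searched string. It spans chr2:148045415-148045714, GRCm38.p6, and is written 5′ to 3′ on the minus strand, with matches in capitals:
Foxa2: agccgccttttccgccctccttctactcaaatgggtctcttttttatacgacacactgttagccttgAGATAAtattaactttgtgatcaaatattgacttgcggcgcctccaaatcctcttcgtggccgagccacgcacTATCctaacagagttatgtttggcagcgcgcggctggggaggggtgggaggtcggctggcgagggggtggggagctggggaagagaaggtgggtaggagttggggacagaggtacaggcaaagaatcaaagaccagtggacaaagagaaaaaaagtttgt
The longer GATA string appears 1 time and the shorter one 2 times, 1 of these inside the longer match. Of the 2 Hnf4a windows searched, 1 held both GATA strings and the SOX string, and the other held none of the 7. A match is a run of letters and not a known site.

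Hnf4a, a nuclear receptor of visceral endoderm and liver, gave a weak signal. Its signal was 2.65, 12.8 and 7.84 in DETA/NO cultures, against 4.93, 2.68 and 5.95 without LIF and 16.5, 11.2 and 12.1 with LIF. The 3 LIF arrays lay above the 3 no LIF arrays, but on no array did Hnf4a exceed the array's own median, and it reached the 40th percentile on 3, which are the 3 LIF arrays. It thus passed the filter only through the group where it is high. The other 3 Hnf4a probe sets were not tested and did not follow it over the 9 arrays (r = 0.11, -0.39 and -0.21). On 1 of them the no LIF arrays also lay below the LIF arrays, at 6.92, 6.12 and 5.62 against 12.2, 12.6 and 6.97, and on the other 2 they overlapped.

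Foxq1, a forkhead factor known from mouse hair and stomach, read 61.1, 39.9 and 24.3 in DETA/NO cultures, against 24.4, 35.5 and 27.3 without LIF and 70.3, 36.8 and 96.3 with LIF. Its highest array, LIF replicate 3, was 1.37-fold above LIF replicate 1, a smaller gap than for Gata4, Gata6, Sox7, Sox17 or Pdgfra. The no LIF arrays lay just below the lowest LIF array, 35.5 against 36.8. The other Foxq1 probe set was too dim to be tested. It read 47.1 on LIF replicate 3, 4.35-fold above the next array, and on it the no LIF and LIF arrays overlapped.

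Cultures without LIF were first set against cultures with it, to see how these genes stand after LIF withdrawal. None of the 8 passed the test: 7 were lower without LIF and 1 (Foxa2) was higher, and the limma adjusted p was 0.973 for each. Hnf4a is among the 7 and enters the median below. It passed the filter only through the LIF arrays, so nothing is read from its direction. Over all 29811 tested probe sets, 0 were called (0%), and 459 had an unadjusted p under 0.05. The median log2 difference of the 8 genes was -1.09, against -0.10 over all probe sets, of which 57.3% were lower. Pdgfra and Gata6 had the widest log2 differences, -1.67 (SE 0.76) and -1.52 (SE 0.66), followed by Sox7 at -1.22 (SE 0.66). By passage Gata6 differed by -1.64, 0.72 and -3.62, so passage 33, whose arrays go against their labels for Socs3, ran the other way. Pdgfra did the same, with -1.49, 0.78 and -4.28.

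Much of this rests on LIF replicate 3. Without that array the log2 differences were -0.77 for Gata6, -0.78 for Pdgfra, -0.60 for Sox7, -0.34 for Gata4 and -0.15 for Sox17, where all arrays gave -0.94 (SE 0.52) for Gata4 and -0.78 (SE 0.60) for Sox17. Hnf4a and Foxq1 moved less, to -1.17 and -0.77, against -1.12 (SE 0.49) and -1.06 (SE 0.47) with all arrays. The Hnf4a value depends on the pseudocount, and was -0.51 with 16 in place of 3. Of the members, on the probe set that represents each, Foxq1 and Hnf4a had all no LIF arrays below all LIF arrays. This was so for 4.72% of all tested probe sets. Nothing is read from the separation of Hnf4a, which passed the filter through the LIF arrays alone. None of the 8 had all no LIF arrays above all LIF arrays, where 2.88% did. Without both replicate 2 arrays the differences were wider for Gata6 at -2.63, Pdgfra at -2.89, Sox7 at -2.25 and Sox17 at -1.58, with limma adjusted p of 0.553. Foxa2, at 0.34 (SE 0.60) with all arrays, was -0.24 without no LIF replicate 1 and -0.04 without LIF replicate 1.

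The second comparison asks what the donor adds to medium without LIF. No member passed the test, with limma adjusted p of 0.950 to 0.994, and their log2 differences ran from -0.19 for Gata6 to 0.51 for Sox7. Their median was 0.17, against 0.08 over all tested probe sets, 0 of which were called (0%) and 1498 of which had an unadjusted p under 0.05. Gata6, Pdgfra, Gata4, Sox17 and Foxa2 differed by at most 0.19 in either direction, and each changed sign under 1 or more alternative settings, Gata4, Sox17 and Foxa2 with quantile normalization or median centring of the arrays. On none of the 13 tested member probe sets did the DETA/NO and no LIF arrays separate. Over all tested probe sets, 6.4% were wholly higher and 2.52% wholly lower with the donor.

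DETA/NO cultures were also set against LIF cultures, a comparison that shares its arrays with the other pair. Of the 8 genes 7 were lower with the donor and Foxa2 was higher at 0.51 (SE 0.60), and 0 passed, with limma adjusted p of 1.00 for each. The 7 include Hnf4a, which passed the filter only through the LIF arrays, so nothing is read from its direction. Called probe sets numbered 0 of 29811 (0%), and 578 had an unadjusted p under 0.05. Gata6 differed by -1.70 (SE 0.66) and Pdgfra by -1.75 (SE 0.76) on the log2 scale. Both had all DETA/NO arrays below all LIF arrays, 2 of 8 genes, where 3.19% of all tested probe sets did. By tested probe set of the members it was 3 of 13, and the third was the dimmer Sox17 probe set. The separation held for 1 of the 2 tested probe sets of Gata6 and 1 of the 3 of Pdgfra. In passage 33 the second Gata6 probe set differed by 0.60 and 1 other of Pdgfra by 0.23. Leaving out LIF replicate 3 gave -0.96 for Gata6 and -0.86 for Pdgfra, and left Sox17 at -0.01, Sox7 at -0.09 and Gata4 at -0.18, where all arrays gave -0.64, -0.71 and -0.77. Foxa2 was at 0.86 without that array.

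**Figure D2:**
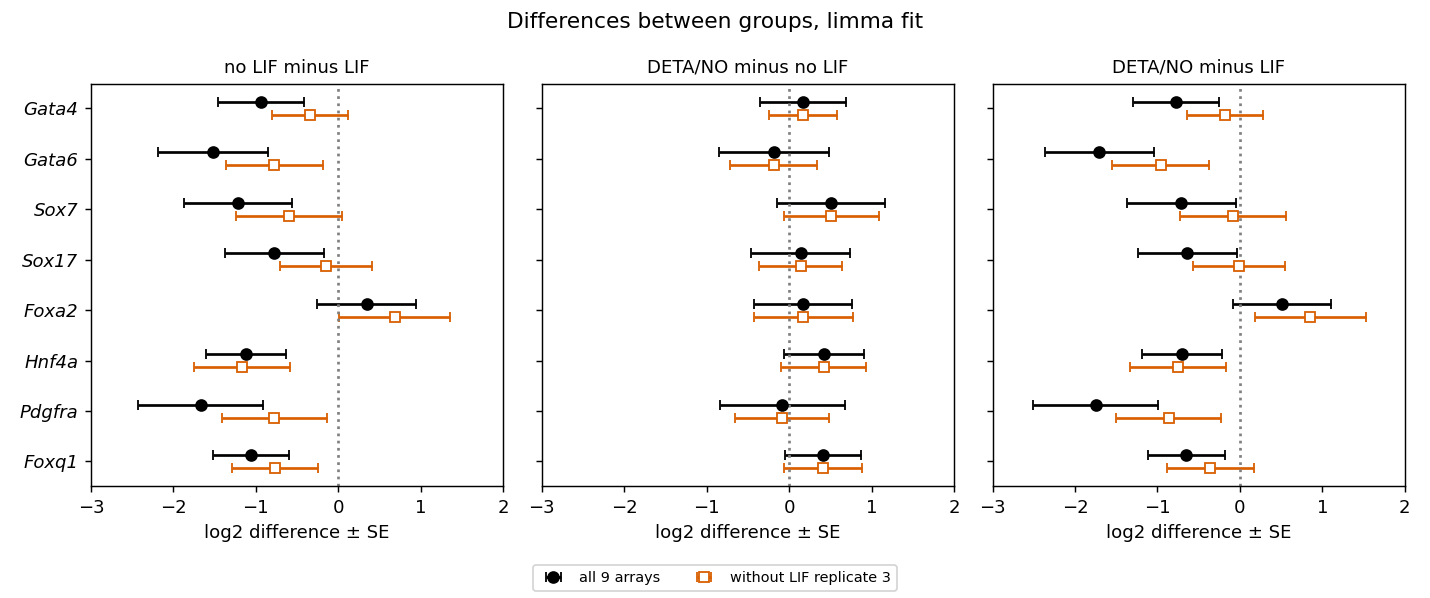
Log2 difference with its standard error for each gene in the 3 comparisons, with all 9 arrays (filled circles) and without LIF replicate 3 (open squares). The shift towards 0 without that array is seen for Gata4, Gata6, Sox7, Sox17 and Pdgfra, and less for Foxq1, in the comparisons against LIF. Foxa2 is the one gene above 0 there.

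The proteins that primitive endoderm and its parietal descendant make were read next, from a list of 17 genes of which 16 were tested. None was called in any comparison. LIF replicate 3 was the highest array for 11 of the 16, and 4 were at least 2-fold above the next: Col4a1 and Col4a2, the chains of basement membrane collagen, Lama1, a laminin chain, and Srgn, a proteoglycan core protein. Col4a1 read 763, 819 and 220.3 in DETA/NO cultures, against 227, 916 and 981 without LIF and 912, 683 and 2786 with LIF. Lama1 read 368, 141 and 78.2 in DETA/NO cultures, against 85.4, 1108 and 343 without LIF and 1311, 164 and 2976 with LIF. These genes shared the high array of the members, and Col4a1, Col4a2 and Lama1 had their lowest signals on the alike pair.

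Of the effectors, 14 of 16 were lower without LIF than with it, where 57.3% of all tested probe sets were. Their median log2 difference was -0.71, against 0.005 over all tested genes. With the donor 13 of 16 were lower than with LIF, where 47.8% of all tested probe sets were. The median there was -1.23, against -0.009 over all tested genes. LIF replicate 3 was the highest array for 11 of the 16, and these values were not repeated without it. Sparc, a secreted matrix protein, averaged 1609 ± 616 in DETA/NO cultures and 3799 ± 1517 with LIF (SD, n = 3 each), and Serpinh1, the collagen chaperone of the endoplasmic reticulum, 919.9 ± 524 and 2606 ± 802. Sparc, Serpinh1 and Col4a2 had all DETA/NO arrays below all LIF arrays, where 3.19% of all tested probe sets did. Fst, the activin-binding follistatin, had the opposite profile and was highest on the alike pair.

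The visceral endoderm list was mixed. Of its 16 genes with a probe set 11 were tested and 0 were called, and LIF replicate 3 was the highest array for 3 of the 11. These were Cubn and Amn, partners in one endocytic receptor, and Dkk1, a secreted WNT inhibitor. Cubn read 687 on LIF replicate 3 and 27.4 to 244 on the other 8 arrays, and Amn read 466 against 29.4 to 260.0. The serum protein genes Afp, Ttr, Apoa1 and Apob, and the Nodal inhibitor Cer1, were below the 40th percentile on LIF replicate 3. Dkk1 read 21.7, 11.5 and 37.1 without LIF and 46.2, 84.5 and 135 with LIF, so these groups did not overlap, as for 4.72% of all tested probe sets. Lefty1, another Nodal inhibitor, instead read 2018, 1642 and 734 in DETA/NO cultures and 194, 558 and 289 with LIF, with all 3 donor arrays above all 3 LIF arrays, as for 2.79% of all tested probe sets. Apob did so too at signals of at most 14.6, as did Afp and Apoa1, which were too dim to be tested. Apoe, an apolipoprotein, read 1762 to 7266 over the 9 arrays and its groups overlapped.

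Definitive endoderm and mesendoderm markers did not follow LIF replicate 3. It was the highest array for 0 of 11, while no LIF replicate 1 was for 4 and DETA/NO replicate 3 for 3, the same 2 arrays on which Foxa2 was highest. Eomes, a T-box factor of the primitive streak, read 64.2, 153 and 519 in DETA/NO cultures, against 522, 54.1 and 39.9 without LIF and 55.7, 144 and 56.9 with LIF. Mixl1, a homeobox factor of mesendoderm, read 13.9, 116 and 210.1 in DETA/NO cultures, against 228, 3.56 and 4.37 without LIF and 3.84, 103 and 15.1 with LIF. Gsc, Lhx1, Fgf8, Evx1 and Mesp1 were below the 40th percentile on LIF replicate 3. Fgf8, a secreted signal of the streak, read 36.8, 81.3 and 204 in DETA/NO cultures, against 234, 0.757 and 46.1 without LIF and 11.4, 182 and 0.991 with LIF. Fgf17 and Shh, which also encode secreted signals, were higher on all DETA/NO arrays than on all others, where 6.4% of all tested probe sets were so against no LIF and 2.79% against LIF. The lowest DETA/NO signal of Shh was 21.7, against 21.2 for the highest of the other arrays. Fgf17 read 199, 107 and 99.3 in DETA/NO cultures, against 85.4, 24.9 and 62.4 without LIF and 70.03, 75.2 and 39.0 with LIF. None of the 11 was called in any comparison.

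**Figure D3:**
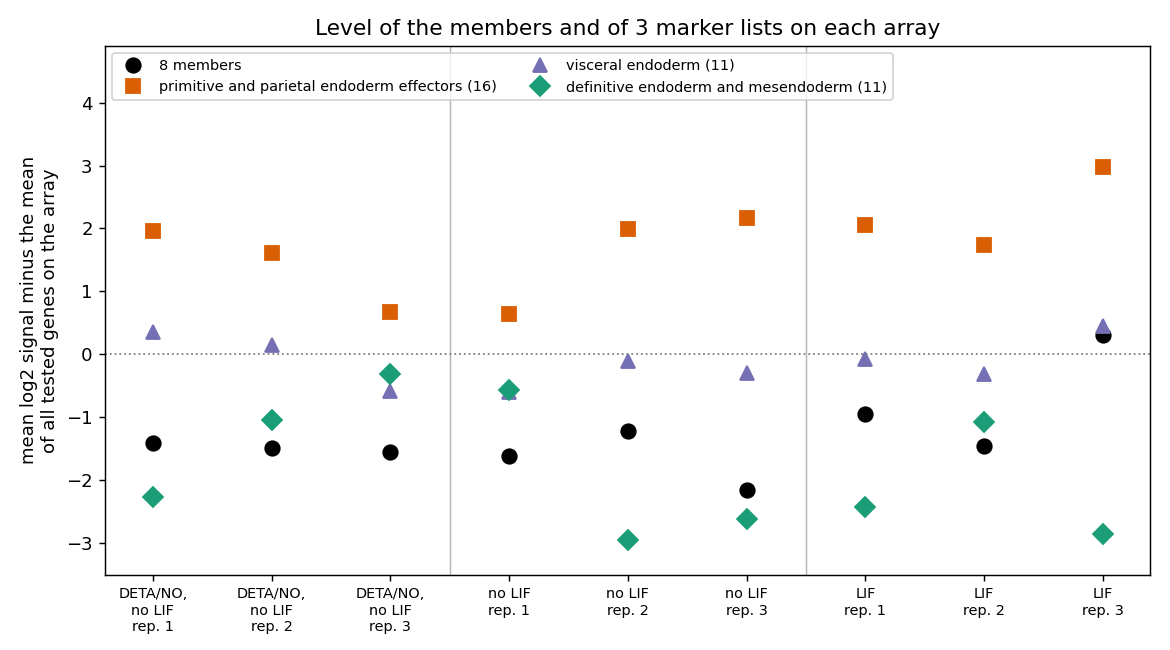
Mean log2 signal of the 8 genes and of 3 marker lists on each array, less the mean of all tested genes on that array; only the changes of a list between arrays are to be read. The 8 genes run from -2.16 to -0.94 on 8 arrays and reach 0.30 on LIF replicate 3, where the effectors are also highest at 2.98 and the mesendoderm markers are at -2.85.

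Other cell types that share single members were checked in the same way, and their part in the results was not tested. Of 10 tested endothelial markers, which bear on Sox7 and Sox17, 1 (Cdh5) was highest on LIF replicate 3; the mean level of the list, on the scale of the plot of list levels, was -2.37 to -1.47 in DETA/NO cultures, -2.48 to -1.47 without LIF and -2.08 to -1.15 with LIF. Its brightest genes were Pecam1, an adhesion molecule, at 226 on LIF replicate 3 and up to 389.9 elsewhere, and Esam, another. The no LIF arrays of Esam lay below all LIF arrays, as for 4.72% of all tested probe sets. Of 8 cardiac markers, which bear on Gata4, 5 were tested and 1 of these, the T-box factor Tbx5, was highest on LIF replicate 3, at 19.4. On that array Actc1, which was tested, and Tnnt2, Mef2c and Hand2, which were not, were below the 40th percentile. Tbx5 was also higher on all DETA/NO arrays than on all no LIF arrays, as for 6.4% of all tested probe sets. Its signals in these groups were dim, at most 10.5. Myh6 and Actc1, the contractile genes with the brightest probe sets of the list, overlapped in each comparison. Of 10 mesenchyme markers, which bear on Pdgfra, 5 were tested and 0 were highest on that array, and Col1a1, Col1a2, Col3a1, Prrx1, Lum, Dcn and Postn were below its 40th percentile. Thy1, a surface protein and with Pdgfrb the brightest of them, read 93.3 there and 94.5 on no LIF replicate 2. Stem cell markers stayed high there: their level was 4.45 on LIF replicate 3 and 3.37 to 5.00 over the 9 arrays, although Nanog, a factor that opposes Gata6 in the embryo, read 539 there and 271 to 1340 on the other 8. Tdgf1 and Dppa5a were the brightest of that list. Both were lower on all DETA/NO arrays than on all no LIF arrays, as for 2.52% of all tested probe sets. Dppa5a was also lower on all DETA/NO arrays than on all LIF arrays, as for 3.19%. Pou5f1 was higher on all no LIF arrays than on all LIF arrays, as for 2.88%.

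**Figure D4:**
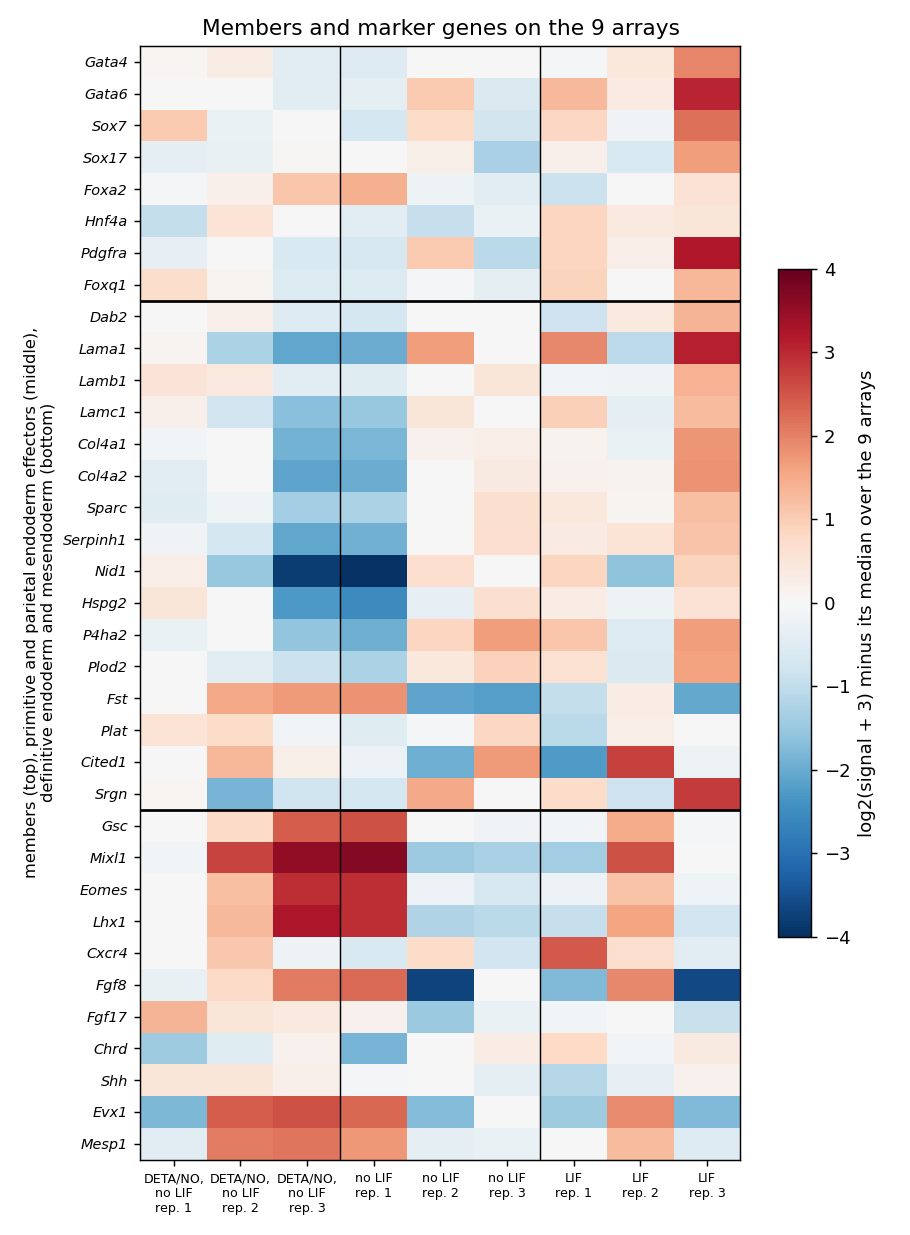
Log2(signal + 3) of each gene less its own median over the 9 arrays, for the 8 genes, the tested effectors and the tested mesendoderm markers, with columns by condition and replicate. The right-hand column, LIF replicate 3, is red for most genes of the upper 2 blocks and not for the lower one, where DETA/NO replicate 3 and no LIF replicate 1 are red.

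The signals that lead to primitive endoderm were then described, from ligands to feedback. Fgf4 read 1211, 604 and 213 in DETA/NO cultures, against 234, 1028 and 907 without LIF and 1318, 444 and 1056 with LIF, and the groups overlapped. Fgfr2, an FGF receptor of the lineage, differed by 0.86 (SE 0.61) between DETA/NO and no LIF cultures and by -0.85 (SE 0.61) between no LIF and LIF cultures. Pdgfa, the ligand of Pdgfra, read 271, 176 and 88.1 in DETA/NO cultures, against 106, 243 and 389 without LIF and 188, 564 and 447 with LIF, so its highest array was LIF replicate 2 and not LIF replicate 3. Of the 10 tested genes of this list 9 were lower without LIF than with it, where 57.3% of all tested probe sets were. In any comparison 0 of the 10 were called. LIF replicate 3 was the highest array for 2, Grb2, an adaptor of receptor kinases, and Spry4, a feedback inhibitor. Spry2, its relative, read 572 to 984 over the 9 arrays.

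Relatives of the members gave a check on whether whole families moved. LIF replicate 3 was the highest array for 0 of the 9 tested relatives, which were Gata1, Gata2, Gata3, Sox18, Foxa1, Foxa3, Foxc1, Foxf1 and Pdgfrb. Gata2, a blood and trophoblast factor, read 62.6 on that array and 108 on LIF replicate 2. Pdgfrb, the second PDGF receptor, read 201 there, 217 on no LIF replicate 2 and 235 on LIF replicate 1, against 17.1 to 151 on the other arrays. Foxf1, a forkhead factor of mesoderm, read 2.86, 10.5 and 12.1 without LIF and 18.7, 25.3 and 19.4 with LIF. These groups did not overlap, as for 4.72% of all tested probe sets. A highest signal on LIF replicate 3, as for Gata4, Gata6 and Pdgfra, was thus not seen for these relatives, although Pdgfrb was high there too.

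Gata6, Pdgfra and Sox17 had the same 3 highest arrays, LIF replicates 1 and 3 and no LIF replicate 2. These also are the 3 arrays with the highest Socs3. Of all 29811 tested probe sets, 3.55% had those 3 arrays on top, against 3 of the 8 genes and 7 of the 13 tested member probe sets. The other 5 genes did not share that set of arrays. Genes of the other lists did, among them the effectors Lama1, Lamc1 and Nid1, the relative Pdgfrb and the stem cell markers Klf4 and Tdgf1. The set is therefore not particular to the members.

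The 60 probe sets that were at least 2-fold above the next array on LIF replicate 3 were listed without regard to these genes. Of these, 53 were named, for 41 genes, and they held 9 probe sets of 5 members (Pdgfra, Gata6, Gata4, Sox17 and Sox7) and 6 of 5 effectors. Bhmt, a betaine and homocysteine methyltransferase, had the widest gap, 152 against 18.1 on the next array, or 8.39-fold. Bmp4, a BMP ligand, read 1197 against 561, Plet1, a membrane protein, 151 against 52.2, Klb, an FGF co-receptor, 223 against 102, and Fgf3, an FGF ligand, 69.6 against 27.8. The list was chosen on that array, so it is a description of it.

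By likeness over the 9 arrays, among 8176 genes other than the members that reached a signal of 100, those closest to the mean of the 8 genes were Slc7a6 (r = 0.93), Bmper (0.91), Jagn1 (0.91), Slc35b1 (0.88), Bmp4 (0.86) and Ostc (0.86). Without LIF replicate 3 their r was 0.58, 0.72, 0.85, 0.91, 0.73 and 0.53, so Slc7a6 and Ostc rest most on that array. Outside the members, Bmper was closest to both Gata6 (r = 0.98) and Pdgfra (r = 0.98), and Bhmt was the second closest to Gata4 (r = 0.95). Riok2 was closest to Foxa2 (r = 0.98), with 259 on DETA/NO replicate 3 and 329 on no LIF replicate 1, against 26.4 to 96.3 on the other 7 arrays. The genes closest to Sox7, Sox17, Hnf4a and Foxq1 were Tram1, Ostc, Rusc1 and Sptlc1.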

How the data were processed

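Total RNA was hybridised to 9 Mouse Genome 430 2.0 arrays. The deposited values are linear signal intensities, made by the authors with GeneChip Operating System 1.4.0.036 and global scaling per the labels and design text; the submitters' processing notes name MAS5. Detection calls were not used here. Values were turned to log2(signal + 3), so folds of dim genes are understated. Control probe sets were left out, and 29811 probe sets at or above their array's 40th percentile on at least 3 of 9 arrays were tested with limma 3.58.1 in R 4.3.3 (lmFit, eBayes with trend, group as only term), with Benjamini-Hochberg adjustment over all of them at 0.05. The 3 arrays a group limit the precision. The fit was tested on simulated data with a smaller spread than these arrays, so that test does not show what it can detect here. Genes were named from probe sets with 1 symbol. Promoters are RefSeq's, GRCm38.p6.

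The members and lists were chosen with earlier results of these data known. The text names all members, Socs3, Pou5f1, Nanog, Fgf4, Fgfr2 and Pdgfa, and of each list its called genes, its 2 brightest and the tested ones whose groups did not overlap; other genes were named after their values were seen. Same-numbered arrays, which share a passage by their labels, deviated together by r from -0.60 to 0.65, with 3 of 9 pairs above 0.1. For differently numbered arrays r ran from -0.64 to 0.64, with 8 of 18 pairs above 0.1. The replicate numbers were therefore not taken to pair the samples in the main fit.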

Additional observations from a re-analysis of the deposited data

How the results depend on the processing

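No setting gave a call: of 63 fits (3 comparisons under 21 settings), 0 had a probe set past the limma threshold, with 255 to 4290 at an unadjusted p under 0.05 and a lowest adjusted p of 0.207. Of 477 alternative values for the members, 455 kept their direction and 22 did not. Of the 22, 18 were in DETA/NO against no LIF, 4 in no LIF against LIF and 0 in DETA/NO against LIF. The cause was not tested. Settings that alter only the filter, the variance trend, the groups fitted or the replicate block leave a log2 difference unchanged by design. So does leaving out an array of the group not compared. Those values could not reverse, so the 455 overstates how stable the directions are. The fit with the replicate number as a block gave 0 calls in each comparison. Its log2 differences are the same by design, such as -1.52 for Gata6 in no LIF against LIF, with a limma adjusted p of 0.990. Foxa2 in no LIF against LIF was -0.24 without the alike pair, -0.022 with array brightness (a median of at least 20) as a block, and -0.24 to 0.69 when single arrays were left out. In DETA/NO against no LIF, quantile normalization gave -0.094 for Gata4, -0.11 for Sox17 and -0.097 for Foxa2, and median centring gave -0.062, -0.087 and -0.059. Without both replicate 2 arrays, Gata6 was 0.32, Foxa2 -0.062 and Pdgfra 0.55, and with brightness as a block Pdgfra was 0.068. Leaving out single arrays gave -0.0037 to 0.37 for Gata4, -0.50 to 0.32 for Gata6, -0.33 to 0.43 for Sox17, -0.18 to 0.75 for Foxa2 and -0.50 to 0.55 for Pdgfra. Hnf4a was not tested under the filter at the 50th percentile. Dim signals limit Hnf4a most.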
